A study of Caenorhabditis elegans with 2 samples.

Results

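The nuclear pore and nuclear transport genes comprised 35 protein-coding genes of the WBcel235 annotation (Ensembl), out of 19973, taken by symbol alone. Of these, 26 encode pore subunits (symbols starting npp-) and 9 encode transport receptors, namely 3 importin alpha genes (ima-), 3 importin beta family genes (imb-) and 3 exportin genes (xpo-). Binding of the zinc finger protein LSY-2 to DNA had been measured by chromatin immunoprecipitation and sequencing (ChIP-seq) in whole L4 larvae of mixed sex. The single group consisted of 2 biological replicates of strain OP240, in which the animals carry the unc-119(ed3) allele on chromosome III and wgIs240, an integrated transgene that supplies lsy-2 fused to eGFP. There was no second condition, the promoter and cell types of the transgene are not given in the sources used here, and whole larvae mix all cell types. Nothing in the labels ties the 2 replicates to a shared batch.

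The nuclear pore is a ring of proteins set in the nuclear envelope, through which RNA and protein pass between nucleus and cytoplasm. A scaffold of the Y complex and the inner ring holds a central channel lined with repeats that bind receptors, with a basket on the nuclear face and filaments on the cytoplasmic face. Importins carry cargo in and exportins carry cargo out, and the small GTPase Ran, loaded with GTP in the nucleus, sets the direction. Nuclear pores are found in nearly every cell, and they are taken apart or rebuilt around mitosis. In which cells each gene of the list is active was not measured here.

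A gene was called bound when the summit of a peak in the authors' optimal list lay within 500 bp of one of its annotated transcript starts. The optimal list had passed a threshold on the irreproducible discovery rate and held 1563 peaks, the same as the strongest 1563 of the 22035 candidates called on both replicates pooled. The candidate lists also contain background regions, as their deposited name says, so a candidate alone is weak evidence of binding. Signal is the authors' own value per peak, used here to rank and describe peaks, and the optimal and pooled lists share a scale, while each replicate's list has its own. A replicate's value for a gene is its strongest candidate within 500 bp of any start, whichever summit that is. The lowest signal in the optimal list was 60.3. Read numbers are not in the files used, so the depth behind each peak is unknown.

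LSY-2 peaks of the optimal list lay at 5 of the 35 genes (14.3%, 95% exact interval 4.81 to 30.3%), against 4.78% of all protein-coding genes. Among genes with a symbol of the locus type (letters, a hyphen and a number), a background chosen after seeing the data, the share was 6.22%. That share lies inside the members' interval, while the 4.78% of all genes lies just below its lower end of 4.81%. Neither reading is a test. Of the 5 genes, the pore gene npp-3, for an inner ring subunit related to vertebrate NUP205, had by far the highest signal, 653, and rank 40 of 1563. The others were the importin beta family gene imb-3 (158.7), the importin beta gene imb-1 (93.9), the importin alpha gene ima-2 (87.7) and npp-14 (85.7), which encodes a cytoplasmic-side subunit related to NUP214. Optimal peaks were thus at 2 of 26 pore genes (7.69%, 95% exact interval 0.946 to 25.1%) and 3 of 9 receptor genes (33.3%, interval 7.49 to 70.1%). The intervals overlap, cover counting error only, and the difference between the classes was not tested. All 5 summits lay upstream of the start, as did 91.9% of the strongest optimal summits of all bound genes.

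**Figure D1:**
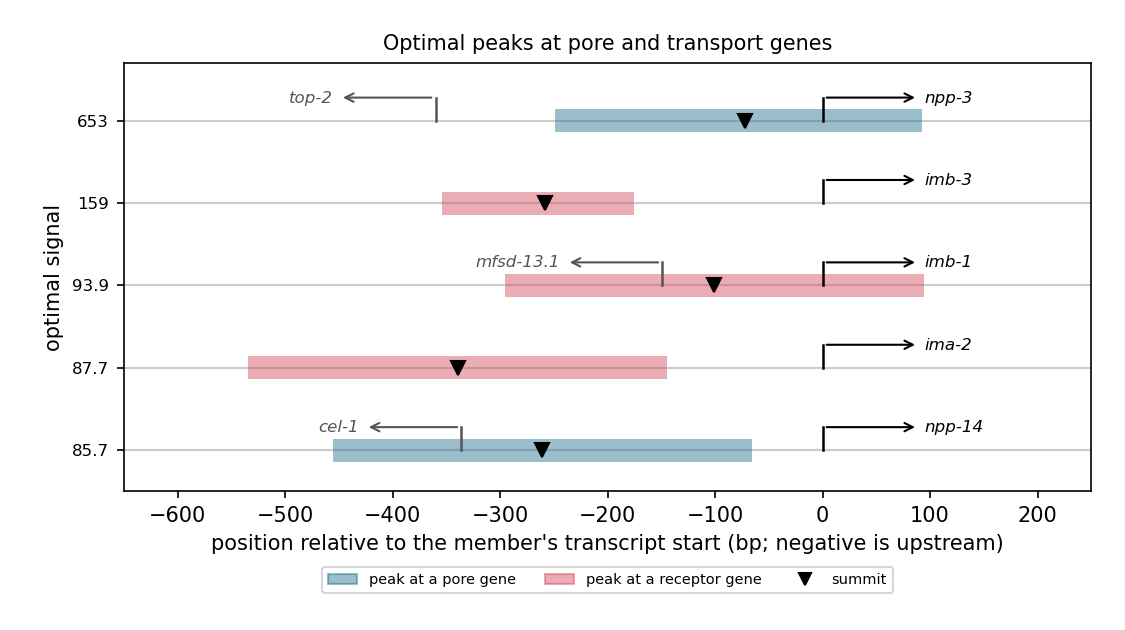
Optimal peaks at the 5 bound genes, drawn by position in bp from the transcript start of the member (arrow to the right), with the deposited signal on the left. Bars are peaks, triangles are summits and grey arrows are starts of other genes within 500 bp of the same summit. The summits lie between 339 and 72 bp upstream, and 3 of the 5 summits sit between divergent starts. Of all 954 bound genes, 661 have a divergent upstream neighbour at any distance, a wider criterion.

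The npp-3 gene lies on the minus strand of chromosome II (WBGene00003789, 11865431 to 11874788 on ce11). Its peak spanned 11874695 to 11875037, so it ran across the annotated start, and its summit was 72 bp upstream. The signal was 257.9 in replicate 1, where the peak had rank 47 of 25003, and 397 in replicate 2, where it had rank 36 of 24002. It was among the strongest peaks in both. The divergent gene top-2, which encodes DNA topoisomerase II, is separated from npp-3 by 359 bp, and its start lies 288 bp from the same summit. With each summit given to its nearest gene alone, the peak went to npp-3.

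Sequence at this summit is shown because the peak is the strongest of the family, and that of 3 weaker candidates (npp-27, npp-10 and ima-3) as examples. These windows do not show how often matches occur. The candidates of npp-18, imb-2 and npp-8 ranked above that of npp-10, held none of the 6-mers given below and are not shown. Each line gives 65 bp to either side of the summit on the plus strand of WBcel235 (RefSeq), outside annotated exons. Capitals mark matches, on either strand, to GAGAGA, to the element ACGCAG or to the element CGTCTC, 6-mers taken from earlier results of these data.
npp-3, chrII:11874795-11874925: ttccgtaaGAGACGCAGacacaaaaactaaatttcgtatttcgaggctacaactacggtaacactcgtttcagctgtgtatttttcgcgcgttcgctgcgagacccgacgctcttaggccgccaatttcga
npp-27, chrIV:7910423-7910553: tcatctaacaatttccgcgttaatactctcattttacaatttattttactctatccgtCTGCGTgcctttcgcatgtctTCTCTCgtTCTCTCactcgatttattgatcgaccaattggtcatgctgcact
npp-10, chrIII:6019880-6020010: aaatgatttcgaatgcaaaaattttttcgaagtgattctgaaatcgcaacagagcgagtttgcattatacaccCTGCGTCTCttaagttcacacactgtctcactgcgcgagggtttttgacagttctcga
ima-3, chrIV:7561913-7562043: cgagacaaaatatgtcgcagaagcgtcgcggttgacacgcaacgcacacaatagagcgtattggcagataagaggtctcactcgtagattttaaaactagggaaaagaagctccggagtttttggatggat

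At npp-3 the capitals form one run of 9 bases, GAGACGCAG, in which ACGCAG overlaps the reverse complement of CGTCTC, 49 to 57 bp to the left of the summit. The same 9 bases, read as CTGCGTCTC, lay 8 to 16 bp to the right of the npp-10 summit. The 9-base run was singled out after these windows were seen. Within 100 bp of the summit it was present at npp-3, imb-1, npp-10 and npp-24, which is 2 of the 5 optimal summits and 4 of the 28 strongest pooled candidate summits of members. Over all optimal summits the share was 14.5%, and over all pooled candidates 3.66%. Within 50 bp the run was at 0 of the 5 optimal member summits, against 9.02% of all optimal summits. Of the 28 candidate summits 1 held it, against 2.19% of all pooled candidates, so these counts rested on the width. The ima-3 window held none of the 3 letter strings.

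Within 50 bp of the summit, 1 of the 5 optimal summits at members held any of the 3 6-mers, against 47.0% of all optimal summits. The match was ACGCAG at imb-3, read as CTGCGT on the plus strand, 13 to 18 bp to the left of the summit. None of the 5 held GAGAGA, which 29.8% of all optimal summits had. Within 100 bp, 3 of 5 held a 6-mer (npp-3, imb-3 and imb-1), against 63.4% of all, so the count rested on the width. Median GC content within 50 bp of the summit was 45.5% at the 5 summits and 47.5% at all optimal summits. Among the 28 strongest pooled candidate summits of members, 4 held a 6-mer (14.3%, against 18.1% of all pooled candidates).

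Receptors accounted for 3 of the 5 bound genes, all of them importins on chromosome I. The strongest was imb-3, whose protein resembles vertebrate importin 5 (minus strand, 310981 to 314989), with a summit 258 bp upstream. It had a signal of 68.1 and rank 366 in replicate 1, and 91.5 and rank 292 in replicate 2. This peak had no other protein-coding start within 500 bp. The next gene upstream is a second member, the exportin gene xpo-2, on the same strand and 3559 bp away, and its own start lay 3.8 kb from the nearest optimal summit.

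The imb-1 gene encodes importin beta, which carries cargo bound through importin alpha (minus strand, 4920683 to 4926486). Its summit was at -101 bp (upstream), with signals of 45.2 in replicate 1 and 49.5 in replicate 2 and ranks of 734 and 809. The divergent gene mfsd-13.1 starts nearer, 48 bp from the same summit. Given to the nearest gene alone, the peak is therefore not counted for imb-1.

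The importin alpha gene ima-2 (plus strand, 6315233 to 6317262) had the summit farthest from a start among the 5, 339 bp upstream. Signals were 37.8 in replicate 1 and 43.8 in replicate 2, with ranks of 1033 and 988. No other protein-coding start lay within 500 bp of it.

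The peak at npp-14 (chromosome I, minus strand, 9660174 to 9664915) had its summit 261 bp upstream. It had signals of 40.5 and 44.8 and ranks of 895 and 950 in replicates 1 and 2. The divergent gene cel-1, which encodes the mRNA capping enzyme, starts 75 bp from this summit and takes the peak under nearest-gene assignment. Bound genes then numbered 3 of 35, the pore gene npp-3 and the receptor genes imb-3 and ima-2, against 3.79% of all genes.

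All 5 optimal peaks were overlapped by one of the strongest 1563 candidates of each replicate, and in each replicate a candidate summit lay within 100 bp. The optimal list comes from the pooled replicates, so part of this overlap is built in. With a window of 250 bp, 2 of the 35 genes were bound, npp-3 and imb-1, and 2.9% of all genes. Among the strongest 50% of optimal peaks, with signals down to 89.85, npp-3, imb-3 and imb-1 were bound, against 2.76% of all genes.

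Of the 35 genes, 12 lie on chromosome I, and 4 of the 5 bound genes were among them. On chromosome I, 7.09% of all protein-coding genes were bound. The remaining bound gene, npp-3, is 1 of 6 members on chromosome II. No member lies on chromosome X, and none of the 6 on III, 8 on IV or 3 on V was bound. A divergent upstream neighbour, at any distance, was found for 25 of the 35 genes (71.4%), against 45.4% of all protein-coding genes. In members the gap to it ran from 148 bp at imb-1 to 7257 bp at npp-19. Among genes with such a neighbour, 3 of 25 members and 7.29% of all genes were bound.

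Pooled candidates lay at more members than optimal peaks did, as over all genes, from a list of 22035 peaks against 1563. A pooled candidate summit lay within 500 bp of a start at 28 of the 35 genes (80.0%, 95% exact interval 63.1 to 91.6%), against 29.8% of all protein-coding genes. By class the counts were 20 of 26 pore genes (76.9%, interval 56.4 to 91.0%) and 8 of 9 receptor genes (88.9%, interval 51.8 to 99.7%). The order of the classes reversed with a window of 250 bp, which left 14 of 26 pore genes (53.8%) and 2 of 9 receptor genes (22.2%) with a pooled candidate, against 19.9% of all genes. Among genes with a symbol of the locus type, a background chosen after seeing the data, the share was 34.5%. On chromosome I it was 35.6% and on chromosome III 39.5%, the highest of the 6 chromosomes. Genes with a divergent neighbour had 32.9%. All of these background shares were lower than the 80.0% of members, but each trait was taken singly. Whether these traits together go with the members' share was not tested. The intervals cover counting error only, and no set test was made, because the members were chosen with earlier results known. How far gene activity or open chromatin moves with the share was not tested, since no file here measures either.

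**Figure D2:**
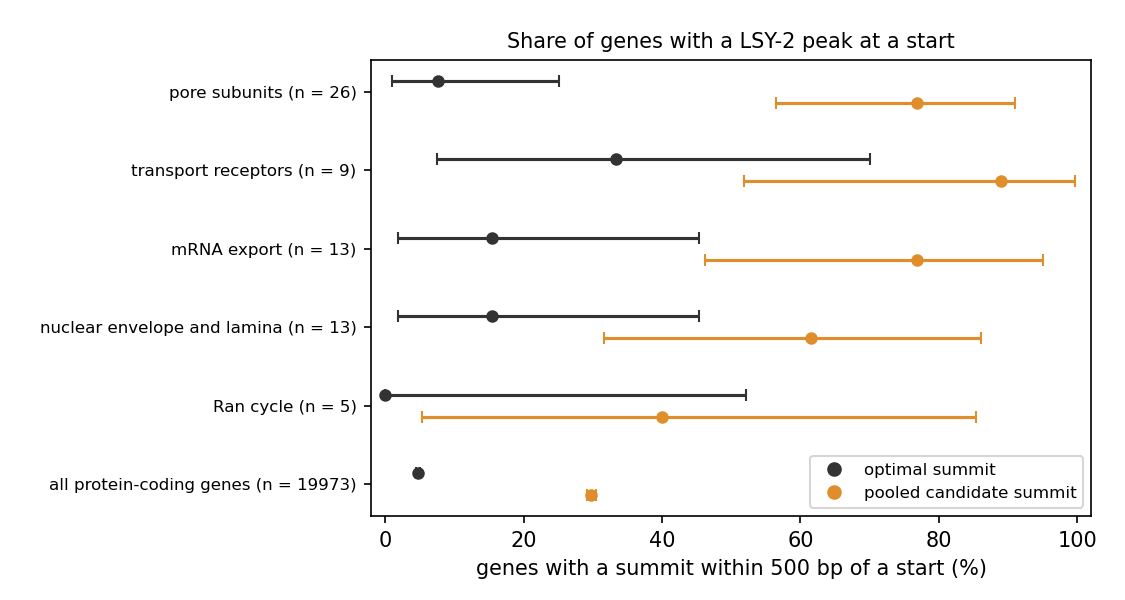
Percentage of genes with an optimal summit (dark) or a pooled candidate summit (orange) within 500 bp of a transcript start, with 95% exact intervals that cover counting error only. Pooled candidates were at 76.9% of pore genes, 88.9% of receptor genes and 29.8% of all genes, while intervals for optimal peaks are wide in every small list.

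The replicates gave like counts when read alone. Replicate 1 had a candidate at 27 members (77.1%, against 32.1% of all genes), and so did replicate 2 (against 31.3%). Each replicate had a candidate within 500 bp of any start at 23 of 35 (65.7%), against 20.9% of all genes. These were 15 of 26 pore genes and 8 of 9 receptor genes, 1 of which (xpo-1) had its candidates at different starts. Restricted to pooled candidates with a deposited -log10 q of at least 1.3, a limit chosen after seeing the data, 15 of 35 members remained (42.9%) against 8.92% of all genes. They were 8 of 26 pore genes (30.8%, interval 14.3 to 51.8%) and 7 of 9 receptor genes (77.8%, interval 40.0 to 97.2%). Within 500 bp, receptor genes had the higher share in the counts given by class, with no test of the difference, and the 250 bp window turned that order for pooled candidates.

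**Figure D3:**
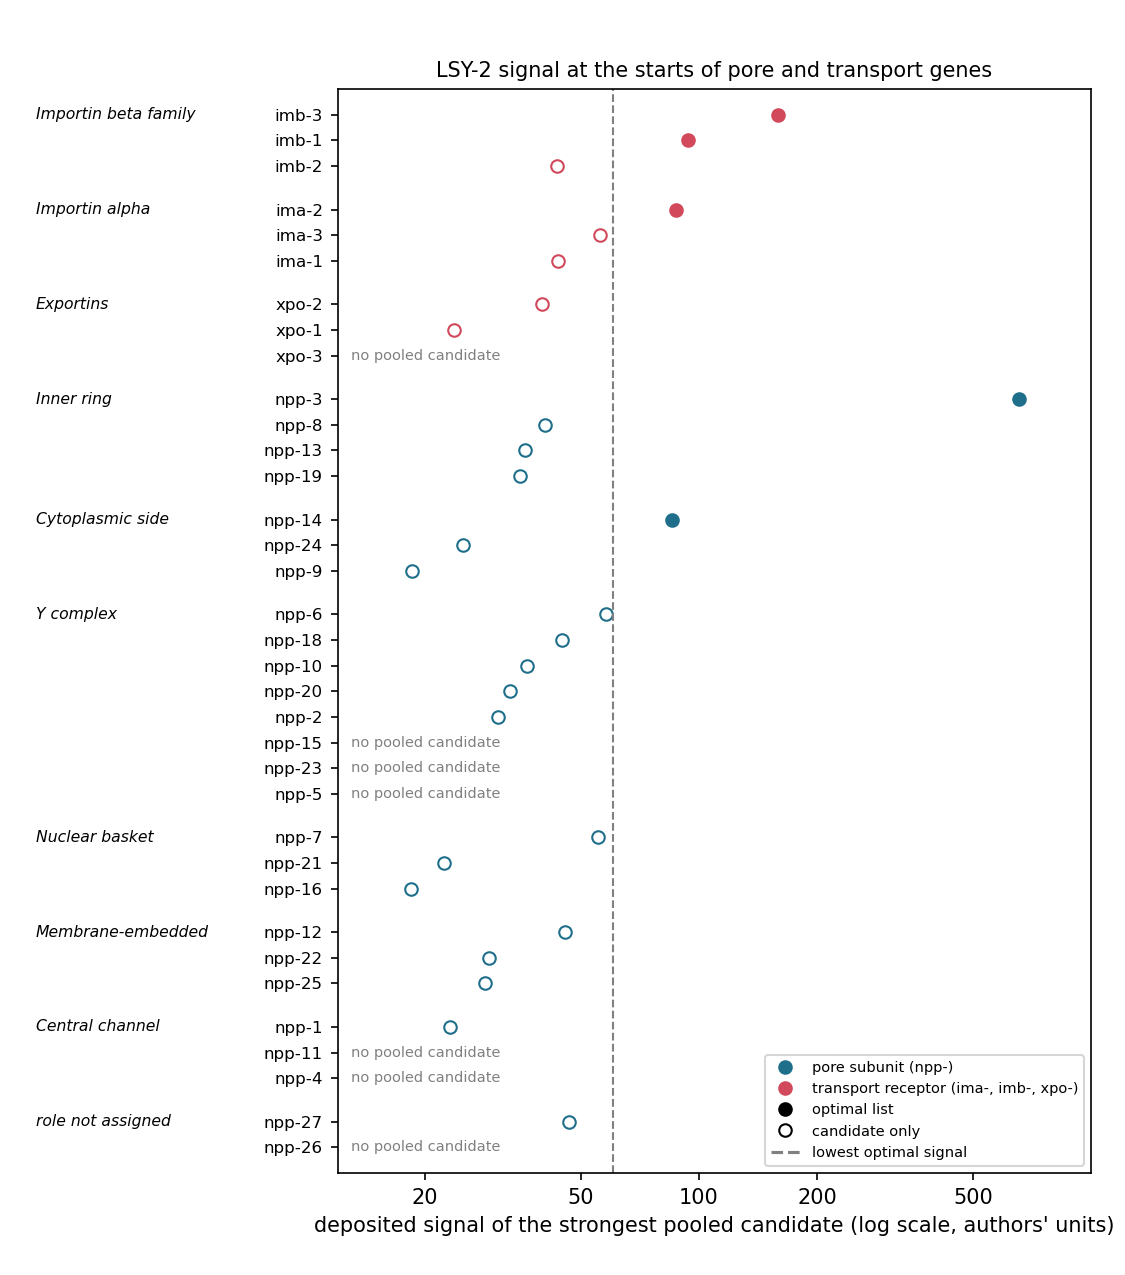
Deposited signal of the strongest pooled candidate within 500 bp of a start for each of the 35 genes, on a log axis, grouped by role. Filled points are in the optimal list, open points are candidates only, and the dashed line is the lowest optimal signal, 60.3. Apart from npp-3 at 653 and imb-3 at 158.7, members lie between 18.5 and 93.9, and 7 have no pooled candidate.

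Every importin gene had a candidate in both replicates. Of the 3 importin alpha genes, ima-3 came closest to the optimal list with a pooled signal of 55.8 (rank 1789). Its signals were 30.01 in replicate 1 and 28.1 in replicate 2, and the summit was 314 bp upstream. The ima-1 candidate (43.7) lay 299 bp upstream of its start but only 45 bp from that of the divergent gene dvc-1. Signals were 17.2 in replicate 1 and 28.1 in replicate 2. The imb-2 gene, for a transportin, had a pooled signal of 43.6 at 326 bp upstream, with 24.3 and 19.3 in replicates 1 and 2. All 6 importin genes thus had a summit upstream of the start and pooled signals from 43.6 to 158.7.

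Exportin genes were lower than the importin genes in pooled signal, and none was bound. The xpo-2 candidate had a signal of 39.9 (rank 3484), with 16.5 in replicate 1 and 21.6 in replicate 2, 198 bp upstream. The product of xpo-2 returns importin alpha to the cytoplasm. The candidate of xpo-1, which encodes the exportin for leucine-rich export signals (CRM1), had 23.8 and lay 469 bp upstream of an internal transcript start. Replicate 2 had a candidate of 12.4 there, at 463 bp upstream. In replicate 1 the candidate counted for xpo-1 was another peak (16.5), 479 bp upstream of the 5′-most start and 7.85 kb from the pooled summit. With the 5′-most start alone the pooled candidate was not counted. No list had a candidate within 500 bp of xpo-3, which encodes the exportin for tRNA. Its nearest pooled summit was 855 bp away.

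The inner ring had candidates at 4 of 4 genes, all present in both replicates. After npp-3 these were npp-8 (40.6, rank 3359), npp-13 (35.97) and npp-19 (35.04), related to NUP155, NUP93 and NUP35. Their summits lay upstream, at -201, -239 and -164 bp. The npp-8 signal was 23.2 in replicate 1 and 15.3 in replicate 2. In npp-13 it was 13.3 and 24.3, and in npp-19 14.1 and 21.7, each on its own list's scale.

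The Y complex, the largest group with 8 genes, had no optimal peak and 5 pooled candidates. The strongest was npp-6 (NUP160), with a signal of 58.1 and rank 1675, just under the lowest optimal signal. Its signals were 33.98 in replicate 1 (rank 1267) and 25.96 in replicate 2 (rank 2641), with the summit 393 bp upstream of npp-6 and 218 bp downstream of the start of spd-5, a gene for a centrosome scaffold protein. The candidate of npp-18 (SEH1) had 44.8, with 35.9 in replicate 1 and 14.02 in replicate 2, where the summit lay 145 bp from the pooled summit. Those of npp-10, the gene for the joint precursor of NUP98 and NUP96, npp-20 (SEC13) and npp-2 (NUP85) had 36.6, 33.1 and 30.8. No pooled candidate was at npp-5 (NUP107), npp-15 (NUP133) or npp-23 (NUP43), although each had a single candidate in 1 replicate, with signals of 8.93, 15.9 and 9.71.

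Subunits on the faces of the pore varied widely. On the cytoplasmic side, after npp-14, npp-24 (NUP88) had 24.99 and npp-9 (NUP358) had 18.6, each with a candidate in only 1 replicate. In the nuclear basket, npp-7 (NUP153) had a pooled signal of 55.2 (rank 1821). The replicates were far apart there, with 48.04 in replicate 1 (rank 663) and 10.1 in replicate 2 (rank 20407). The basket genes npp-21 (TPR) and npp-16 (NUP50) had 22.4 and 18.5, with no candidate in replicate 2.

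Membrane-embedded subunits had candidates at 3 of 3 genes, in both replicates. These were npp-12 (gp210, 45.5, rank 2648, 56 bp upstream), npp-22 (NDC1, 29.2) and npp-25 (28.5). Signals in replicates 1 and 2 were 24.7 and 30.8 at npp-12, where the replicate 1 summit lay 174 bp from the pooled summit. At npp-22 they were 18.8 and 13.6 (rank 11218 in replicate 2). At npp-25 they were 9.41 and 17.3, with rank 22500 in replicate 1, near the lowest signal of that list (8.88). The npp-25 replicate summits lay 81 and 123 bp from the pooled one. The central channel had a pooled candidate at 1 of 3 genes (interval 0.84 to 90.6%). The intervals of the inner ring, Y complex, membrane-embedded and central channel groups overlap, and differences between them were not tested. The npp-1 gene (NUP54) had a pooled signal of 23.2, with 20.9 in replicate 2 and no candidate in replicate 1. The genes npp-4 (NUP58) and npp-11 (NUP62) had no candidate in any list. Of the genes with no role assigned here, npp-27 had 46.8 and npp-26 had no candidate in any list. The npp-27 candidate had rank 2503, with signals of 24.6 in replicate 1 and 20.99 in replicate 2. Its summit lay 241 bp upstream of the npp-27 start and 87 bp from that of the divergent gene ntl-4.

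By the median over genes with a pooled candidate, the signal was 35.5 for pore genes, 49.8 for receptor genes and 27.8 for all protein-coding genes. Genes without a candidate have no value, so these medians describe only the 20 pore and 8 receptor genes that have one. For bound genes the medians were 369 for the 2 pore genes, 93.9 for the 3 receptor genes and 100.7 for all 954. The pore median of bound genes is the midpoint of npp-3 and npp-14 and says little.

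**Figure D4:**
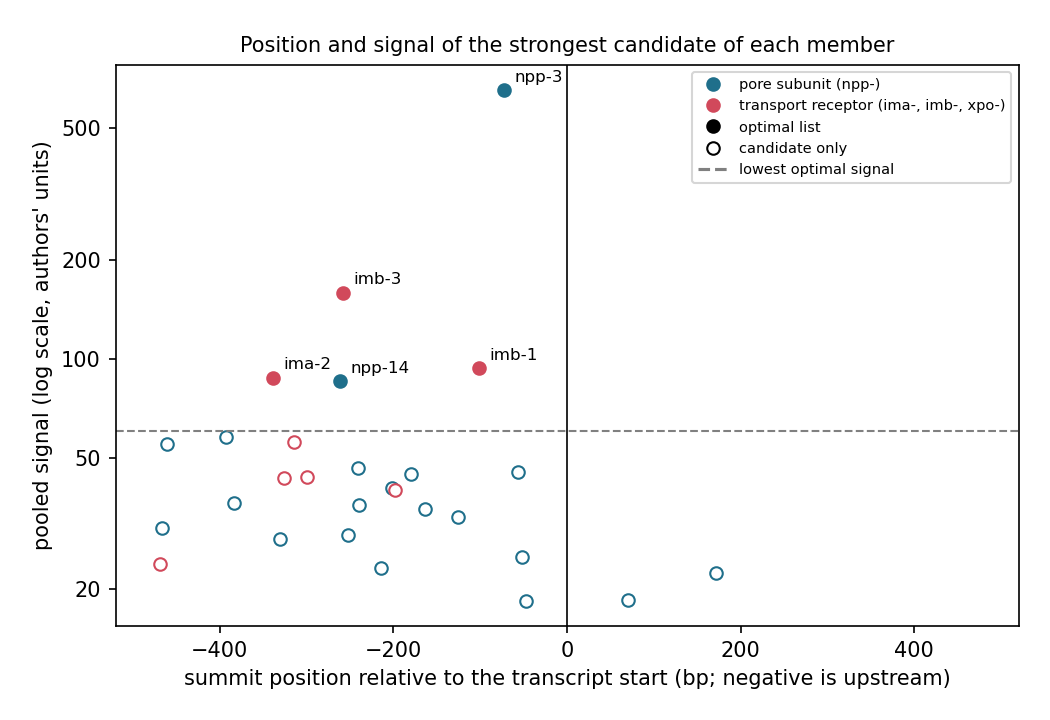
Pooled signal (log axis) against the position of the summit in bp from the transcript start, for the strongest pooled candidate of each of the 28 members that have one. Positions are from the nearest annotated start, and 26 summits lie upstream of it. The xpo-1 and npp-24 summits are upstream of an internal start only and lie inside the gene. All 8 receptor summits lie between -469 and -101 bp, while pore summits run from 466 bp upstream to 172 bp downstream.

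Summits at members were mostly upstream of the start. This held for 26 of 28 strongest pooled candidates (92.9%), against 67.9% over all genes with a pooled candidate. The exceptions were npp-9, 70 bp downstream, and npp-21, 172 bp downstream. Position is from the nearest annotated start, and the share over all genes was counted the same way. Of the 26, xpo-1 (469 bp) and npp-24 (52 bp) were upstream of an internal start only. Their summits lay inside the gene, downstream of the 5′-most start. The median position was -207.5 bp for pore genes (quartiles -278.5 and -68.0) and -306.5 bp for receptor genes (quartiles -329.2 and -243), with negative values upstream. Over all protein-coding genes with a pooled candidate it was -121 bp, and over all bound genes -202 bp. The receptor median lay farther out than the pore median, but the quartile ranges overlap and the difference was not tested. The receptor genes imb-1 (-101 bp) and xpo-2 (-198 bp) had summits nearer to the start than the pore median.

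Members just inside the window were xpo-1 (469 bp), npp-2 (466 bp) and npp-7 (461 bp). No unbound member had an optimal summit within 1000 bp of a start. The nearest for the 30 unbound members ranged from 3.8 kb at xpo-2 to 116 kb at npp-2, with a median of 20.2 kb.

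Several candidates are shared with another gene. Among the strongest pooled candidates of members, that at npp-10 lay nearer to the divergent gene cyk-3, that at npp-25 to the mitochondrial ribosomal protein gene mrps-10, and that at npp-7 to unc-40, which encodes the netrin receptor. With nearest-gene assignment of all pooled candidates, 16 pore genes and 6 receptor genes kept one, against 27.1% of all genes.

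**Figure D5:**
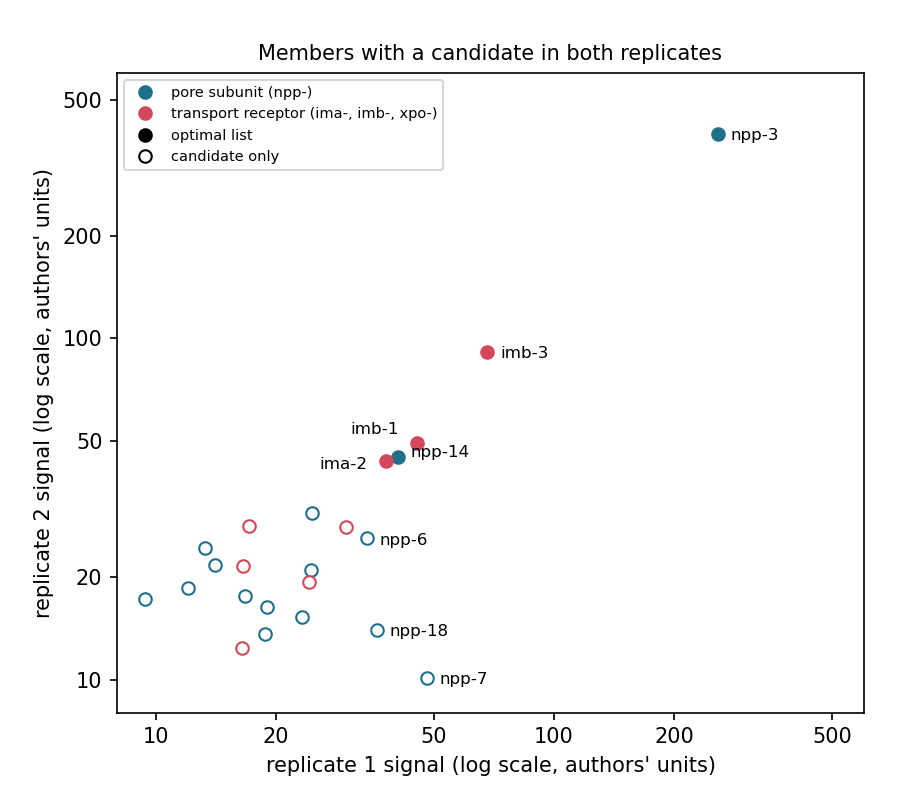
Signal in replicate 1 and replicate 2 (log axes, separate scales of the authors) for the 23 members with a candidate in both, each point being the strongest candidate per gene, which for xpo-1 is a different peak in each replicate. The 5 bound genes lie at the upper right and rank alike in both replicates. Part of this is built in, because the optimal list comes from the pooled replicates. The npp-7 and npp-18 candidates rank far higher in replicate 1 than in replicate 2.

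Across the 23 members with a candidate in both replicates, the strongest summits differed by a median of 16 bp, and 16 of 23 lay within 30 bp of each other. The xpo-1 summits were farthest apart, 7858 bp, at different starts. The Spearman correlation of signal over these genes was 0.457, a description only, since all points come from the same 2 libraries. The ratio of replicate 1 to replicate 2 signal ranged from 0.545 to 4.74 on the separate scales of the lists, with the highest value at npp-7. Taking the strongest 1563 candidates of replicate 1 alone in place of the optimal list, 5 pore genes were bound, with npp-6, npp-7 and npp-18 added. With those of replicate 2 alone, the pore genes were npp-3 and npp-14 as before. The receptor genes were imb-1, imb-3 and ima-2 in both cases. The shares over all genes were 4.55% and 4.67%.

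Bound genes were also found among other genes of the pathway, outside the symbol rule. In mRNA export, 2 of 13 genes matched to the annotation were bound, ddx-19 (133.9, 416 bp upstream), which encodes an export helicase, and hel-1 (81.2, 265 bp upstream), related to UAP56. The share over all genes was 4.78% for optimal peaks and 29.8% for pooled candidates, which also holds for the counts that follow. Pooled candidates were at 10 of 13, and the export receptor gene nxf-1 (59.9) and its partner gene nxt-1 (59.5) were just under the lowest optimal signal. Of 13 nuclear envelope and lamina genes, 2 were bound, the emerin gene emr-1 (96.2) and lem-2 (65.2), and 8 had a pooled candidate. The Ran cycle had 0 of 5 bound (95% exact interval up to 52.2%), with candidates at ran-3 (30.7), which encodes the exchange factor for Ran, and ran-5 (35.2). The Ran gene itself, ran-1, had no pooled candidate, nor did ran-2, which encodes its GTPase-activating protein, or ran-4. The pore assembly gene mel-28 had a weak candidate (17.9), and rae-1, a pore-associated gene named after its value was seen, had 48.04 at 89 bp upstream. The symbol eny-2 matched no annotated gene.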

How the data were processed

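Peak lists of 2 biological replicates on ce11 were used as deposited. Per the deposited text listings, the candidate lists derive from immunoprecipitation and control alignments, and the optimal list from the candidates of both replicates and their pool. Signal and the -log10 q are the authors' deposited values per peak. The aligner, the peak caller and the discovery-rate threshold are not given in the sources used here. All peaks fell within the chromosomes of WBcel235, the reference assembly. Coordinates are 1-based. The ce10 lists were not used.

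Summits were linked to every protein-coding transcript start within 500 bp, and a gene took its strongest summit. Genes and lists were counted beside all 19973 genes, with exact (Clopper-Pearson) intervals at 95% and no test between classes. The members and lists were chosen with earlier results of these data known. All members are accounted for, and bound members are given in full. The strongest candidates of each class are given by signal, but not all of them with rank and position. A neighbour was the next non-overlapping protein-coding gene upstream, at any distance. The linking step was checked on summits planted at known distances. Alternatives were other windows, nearest-gene assignment, the 5′-most start, the stronger part of each list and each replicate alone. Python 3.11.15, pandas 2.3.3, SciPy 1.17.1 and matplotlib 3.10.9 were used.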

Additional observations from a re-analysis of the deposited data

How the results depend on the processing

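Windows of 1000 bp, or of 1000 bp upstream to 200 bp downstream, and the 5′-most start kept the bound counts at 2 pore and 3 receptor genes, while the share over all genes was 6.19%, 5.79% and 4.42%. A 250 bp window left 1 pore and 1 receptor gene bound (2 in all, median distances -72 and -101 bp, pore median signal 652.7) and 14 pore and 2 receptor genes with a pooled candidate, which reversed the order of the class shares. Nearest-gene assignment left 1 pore gene (signal 652.7, -72 bp) and 3 members bound, with receptor medians of 123.2 and -298.5 bp. The strongest 50% of optimal peaks also left 1 pore gene (652.7, -72 bp) and 3 members bound, with receptor medians of 126.3 and -179.5 bp. Requiring a -log10 q of at least 1.3, an alternative chosen after seeing the data, left 8 pore genes with a candidate. Widening the sequence window from 50 to 100 bp on either side raised the optimal member summits with a 6-mer from 1 to 3. With either replicate left out, bound pore genes ranged from 2 to 5 and bound members from 5 to 8. Pore medians then ranged from 40.49 to 221 in signal and from -279 to -166.5 bp, and receptor medians from 45.19 to 49.45 and from -284 to -258 bp. Signal there is on the scale of the replicate's own list, which by itself moves these medians. No paired analysis was possible because there was 1 group of samples. Depth is unknown, so whether deeper libraries would lift candidates such as npp-6 over the optimal threshold was not tested.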
